A study of Mus musculus with 24 samples.

Results

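The genes described here encode the protein part of the mitochondrial ribosome in 2 mouse melanoma cell lines. They were chosen by name, as every RefSeq protein-coding gene whose symbol is Mrpl or Mrps followed by digits, which gave 78 of 21900 genes. Each was read against peaks of chromatin proteins and of the histone mark H3K4me3 that lay within 1 kb of either end of the gene record, called gene-end peaks below. Line 493 carries a Kmt2d mutation whose kind the labels do not give (mutant), and line 971 is labelled Kmt2d WT (WT). Both are mouse melanoma cells grown in DMEM/F12 with serum, and the labels add no further allele or agent. The binding sites were mapped by CUT&RUN, in which an antibody brings a nuclease to its target so that the DNA there is cut out and sequenced. The study asked what KMT2D does in melanoma by comparing where gene regulators sit in these lines.

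Mitochondria translate the few proteins encoded in their own DNA on a ribosome of their own. Its RNA comes from mitochondrial DNA, whereas all of its proteins are encoded in the nucleus, made in the cytosol and imported. MRPL proteins build the large subunit, which joins amino acids, and MRPS proteins build the small subunit, which reads the messenger RNA, apart from a few whose names do not match their place. Some of these proteins have a counterpart in bacterial ribosomes and others arose with mitochondria. H3K4me3 marks the starts of active genes. KMT2D is a histone methyltransferase that works in a complex with the demethylase UTX, while Menin belongs to the related KMT2A and KMT2B complexes.

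In all, 22 peak lists were used, 12 from the mutant line and 10 from the WT line, with 197727 peaks. H3K4me3, Menin, TFAP2A, ARID1A, UTX, PBRM1, SMARCC1, ARID2 and BRD9 had a list in both lines. TFAP2B and SOX10 (antibodies U and T) were used in the mutant line only and KMT2D in the WT line only, and the rabbit IgG sample of each line was not used here. Each target had 1 library per line, so there was no replicate check and no test, and line and genotype cannot be told apart. The depth at which peaks had been called, reconstructed from the lists, ran to 2.21 mega (M) fragments in mutant lists, with 0.405 M for SMARCC1 as the lowest, and was 0.862 M to 1.203 M in WT lists. It was higher in the mutant line for all paired targets except SMARCC1, with a ratio of mutant to WT of 1.58 for UTX, 1.81 for TFAP2A and 1.86 for Menin. A list cannot tell fewer cells with a protein at a site from less of it in every cell. Of 7 genes that mark pigment cells, 3 had H3K4me3 at a gene end in the mutant line and 2 in the WT line: Mitf and Pmel in both, Sox10 in the mutant line only, and Tyr, Tyrp1, Dct and Mlana in neither. Of 4 fibroblast markers, 3 had it in both lines, and the keratinocyte, blood and endothelial markers had none in either.

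The promoters of 7 members are shown because the binding results turn on them. RefSeq's promoter table (GRCm38.p6, the assembly of mm10) matched 69 of the 78 members, and each sequence runs 5′ to 3′ along the gene from 250 bases before to 30 bases after a listed transcription start (the first in the table where a gene has several). Capitals mark exact matches on either strand to letters bound by the ETS family (CCGGAAG), the TFAP2 family (GCCNNNGGC, which reads alike on both strands), YY1 (AAGATGG) and NF-Y (CCAAT). No marked match shares letters with another. Mrps16 and Mrpl40 had the strongest TFAP2A peaks of the members in the mutant list, Mrpl34 and Mrpl41 the strongest KMT2D peaks, and Mrps12 had peaks in as many lists as any member. Mrpl22 has its listed start inside the gene record, and Mrpl42 had strong H3K4me3 and Menin peaks with no other protein.
Mrps16 (chr14:20393461-20393740, minus strand): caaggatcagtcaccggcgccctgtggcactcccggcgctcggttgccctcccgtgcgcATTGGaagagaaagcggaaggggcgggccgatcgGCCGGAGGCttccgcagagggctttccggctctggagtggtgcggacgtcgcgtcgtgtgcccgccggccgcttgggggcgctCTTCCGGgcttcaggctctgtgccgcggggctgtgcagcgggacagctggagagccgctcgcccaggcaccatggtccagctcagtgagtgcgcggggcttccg
Mrpl40 (chr16:18876608-18876887, minus strand): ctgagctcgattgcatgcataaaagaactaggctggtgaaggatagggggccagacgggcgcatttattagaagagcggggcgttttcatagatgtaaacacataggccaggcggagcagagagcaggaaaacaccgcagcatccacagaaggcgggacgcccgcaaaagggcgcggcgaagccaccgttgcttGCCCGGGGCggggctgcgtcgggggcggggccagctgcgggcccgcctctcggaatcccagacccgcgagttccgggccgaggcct
Mrpl34 (chr8:71464676-71464955, plus strand): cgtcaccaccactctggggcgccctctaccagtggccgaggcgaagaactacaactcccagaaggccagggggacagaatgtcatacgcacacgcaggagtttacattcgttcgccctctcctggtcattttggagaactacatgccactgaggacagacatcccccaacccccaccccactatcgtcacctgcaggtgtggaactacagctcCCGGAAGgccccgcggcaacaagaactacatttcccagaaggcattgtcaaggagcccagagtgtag
Mrpl41 (chr2:24975069-24975348, minus strand): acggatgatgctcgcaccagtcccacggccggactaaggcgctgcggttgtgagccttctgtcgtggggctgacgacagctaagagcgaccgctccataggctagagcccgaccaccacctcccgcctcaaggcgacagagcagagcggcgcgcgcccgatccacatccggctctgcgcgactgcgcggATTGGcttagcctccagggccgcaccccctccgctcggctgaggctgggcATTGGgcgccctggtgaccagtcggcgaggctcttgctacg
Mrps12 (chr7:28741792-28742071, minus strand): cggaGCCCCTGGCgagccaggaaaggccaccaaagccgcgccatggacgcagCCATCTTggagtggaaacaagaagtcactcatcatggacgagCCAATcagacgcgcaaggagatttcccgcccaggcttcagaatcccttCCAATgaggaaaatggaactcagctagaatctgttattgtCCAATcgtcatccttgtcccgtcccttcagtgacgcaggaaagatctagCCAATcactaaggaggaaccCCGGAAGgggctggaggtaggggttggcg
Mrpl22 (chr11:58171414-58171693, plus strand): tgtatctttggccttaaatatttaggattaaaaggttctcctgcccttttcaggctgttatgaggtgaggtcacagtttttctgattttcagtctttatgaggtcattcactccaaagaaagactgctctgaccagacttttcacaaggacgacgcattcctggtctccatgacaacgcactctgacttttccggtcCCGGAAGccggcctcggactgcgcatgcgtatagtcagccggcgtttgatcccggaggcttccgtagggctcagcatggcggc
Mrpl42 (chr10:95501920-95502199, minus strand): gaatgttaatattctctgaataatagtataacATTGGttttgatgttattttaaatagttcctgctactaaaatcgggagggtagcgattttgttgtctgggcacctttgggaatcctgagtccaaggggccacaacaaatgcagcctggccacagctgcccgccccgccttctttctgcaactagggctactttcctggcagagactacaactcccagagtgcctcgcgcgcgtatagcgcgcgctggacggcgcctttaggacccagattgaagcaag

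H3K4me3 marked almost every one of these genes in both lines. A gene-end peak was present at 73 of 78 members (93.6%) in the mutant list, where 53.8% of all genes had one, and at the same 73 in the WT list, where 49.3% had one; 48.7% of all genes had one in both. No member had H3K4me3 in 1 line only, against 5.09% of all genes in the mutant line only and 0.543% in the WT line only. That agreement covered both subunits: 21 of 21 large-subunit proteins that arose with mitochondria, 27 of 30 large-subunit proteins with a bacterial counterpart, 15 of 16 such small-subunit proteins and 9 of 10 mitochondria-specific small-subunit proteins.

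**Figure D1:**
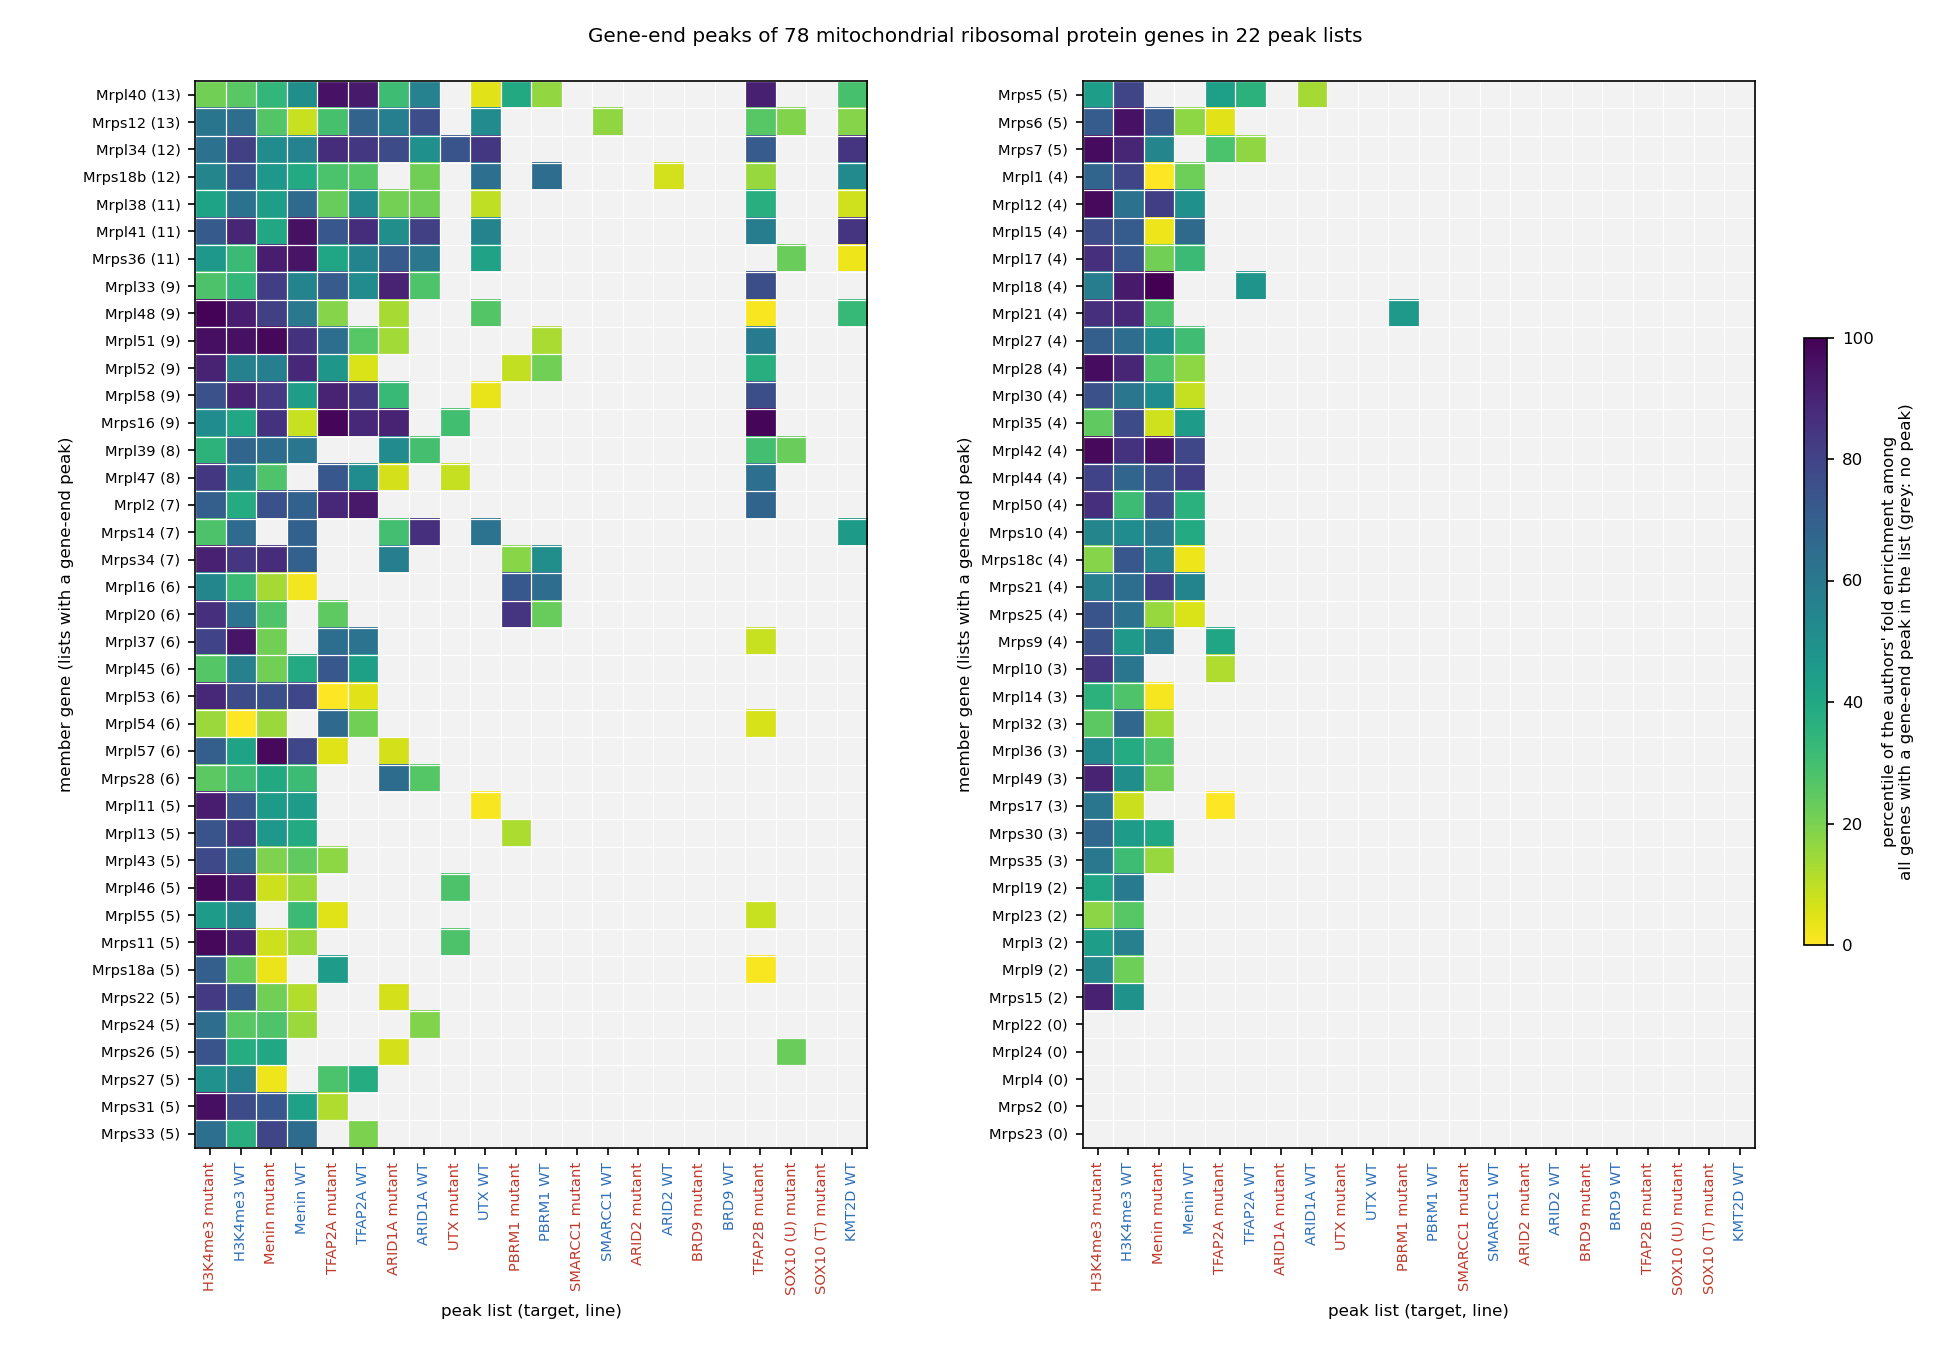
Each row is 1 of the 78 genes with, in brackets, the number of lists in which it had a gene-end peak; each column is 1 peak list, red for the mutant line and blue for the WT line; colour is the percentile of the authors' fold enrichment among all genes with a gene-end peak in that list, and grey means no peak. H3K4me3 fills 73 rows in both lines, Menin 63 in the mutant list and 48 in the WT list, and the other targets gather in the upper rows.

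The strength of the mark was above the middle of each list. Fold enrichment, the authors' ratio of signal to local background at a peak, had a median over the 73 genes of 28.7 in the mutant list, where the median over all genes with a gene-end peak was 22.7, and of 17.3 in the WT list, where it was 14.9. The median member stood at percentile 69.8 of the mutant list and at percentile 62.6 of the WT list. Such ratios depend on each library's depth and are compared only within a list. In both lists 38 of the 73 members stood at or above the list's median, 16 did so in the mutant list only, 12 in the WT list only and 7 in neither. Peaks were about as wide as elsewhere, with a median of 1588 bp in the mutant list (1656 bp over all genes) and 1595 bp in the WT list (1701 bp).

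Mrpl48, which encodes a large-subunit protein, had the highest mutant fold enrichment at 48.3, and its WT value of 24.3 was the fifth of that list's members. It was followed in the mutant list by the pair Mrpl46 and Mrps11, which share 1 peak (45.4), then by Mrpl42 (44.8) and Mrpl12 (44.5). The WT list was led by Mrpl51 (26.05), Mrps6 (25.7), Mrpl37 (25.3) and Mrpl18 (24.4). Different genes therefore led each list, and Mrpl48 alone was among the 5 highest of both. The H3K4me3 peaks of Mrpl48, Mrpl12, Mrpl51, Mrps6 and Mrpl37 also lay at an end of a neighbouring gene. The peak of Mrpl18 in each list lay within 1 kb of the listed start of Tcp1, which is on the other strand. At the low end Mrpl54 was last in both lists, with 10.4 in the mutant list and 3.05 in the WT list, where its peak was 294 bp wide. The other low values of the mutant list belonged to Mrpl23 (11.5), Mrps18c (11.8), Mrpl40 (13.2) and Mrpl35 (14.4), and those of the WT list to Mrps17 (6.06), Mrpl9 (9.54), Mrps18a (9.995), and Mrps24 and Mrpl40 (10.4 each). Mrpl54 was also the member that met a −log10 q of at least 5 in the mutant list but not in the WT list.

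**Figure D2:**
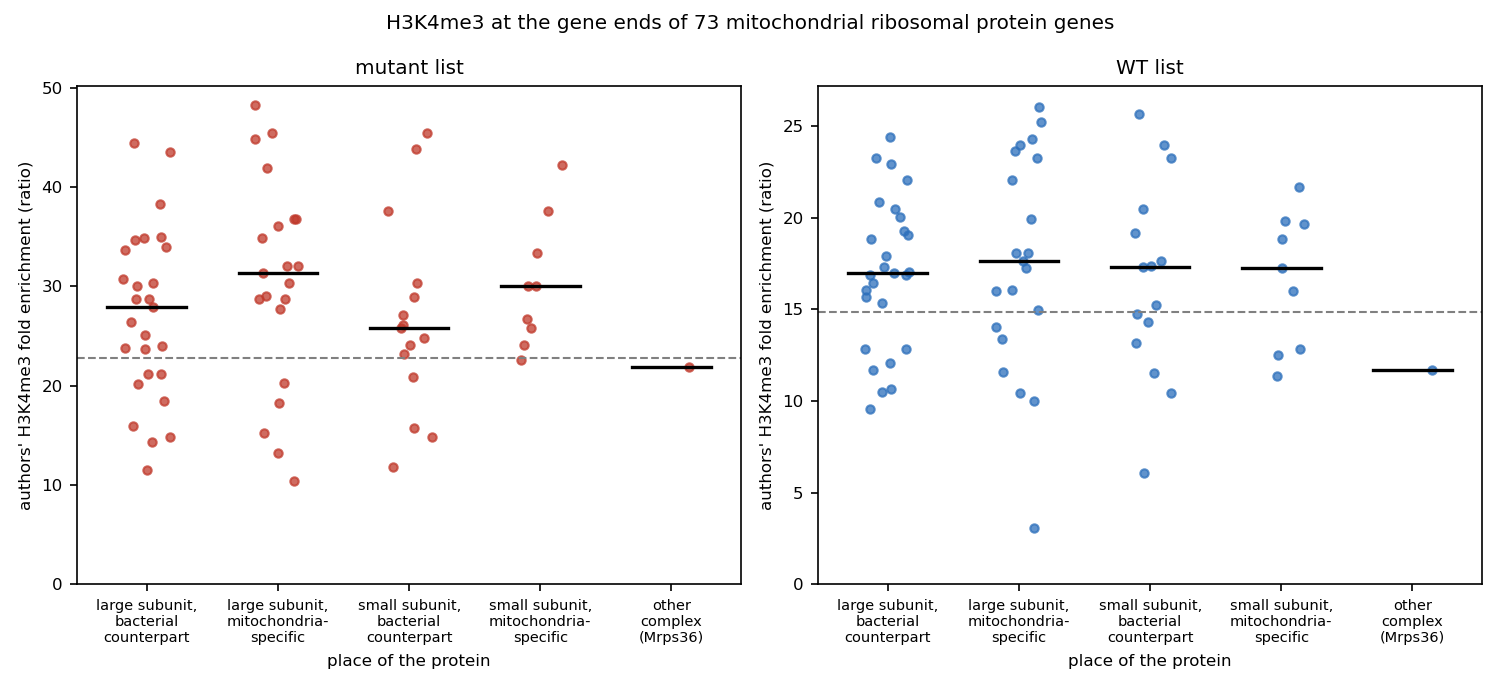
Points are the authors' H3K4me3 fold enrichment (ratio) of the 73 members with a gene-end peak, mutant list left and WT list right, by the place of the encoded protein; black bars are medians of the class, the dashed line is the median over all genes with a gene-end peak in that list (22.7 in the mutant list and 14.9 in the WT list), and points are spread sideways at random. Values of the 4 ribosomal classes overlap throughout, and the lowest point of each panel is Mrpl54.

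Mrpl4, Mrpl22, Mrpl24, Mrps2 and Mrps23 had no gene-end peak in any of the 22 lists. All 5 did have an H3K4me3 peak inside the gene, 1.19 to 6.01 kb from the nearer end in the mutant list and 1.24 to 6.10 kb in the WT list. In Mrpl22, for a large-subunit protein at the exit tunnel, it lay at chr11:58171676-58172370 (mm10) in the mutant list with a fold enrichment of 25.9 and at chr11:58171687-58172602 in the WT list with 15.3. These peaks began 12 bp and 23 bp from the listed start, whose promoter is printed above. The mutant peak of Mrps2, Mrps23 and Mrpl24 covered the listed start, as did the WT peak of Mrps23 and Mrpl24, and that of Mrps2 lay 14 bp away; Mrpl4 had no listed start. Counted over the whole gene span with 1 kb on each side, 78 of 78 members had H3K4me3 in both lines, against 58.9% of all genes in the mutant list and 54.2% in the WT list. Within 1 kb of a listed start it was 69 of 69 in both lines. Mrps23 also held Menin and TFAP2A peaks of both lines inside the gene, with TFAP2A fold enrichments of 13.7 in the mutant list and 21.6 in the WT list.

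Menin was the protein found most often. It had a gene-end peak at 63 members (80.8%) in the mutant list, where 37.9% of all genes had one, and at 48 (61.5%) in the WT list, where 31.6% did. Both lines shared 46 members (29.6% of all genes were shared), the mutant line alone had 17 (8.28% of all genes), and the WT line alone had Mrpl55 and Mrps14 (1.92% of all genes). Every member with Menin also had H3K4me3 in the same line, and the best peaks overlapped at 58 of 63 members in the mutant list and 44 of 48 in the WT list. All 21 large-subunit proteins that arose with mitochondria had Menin in the mutant line and 16 of them in the WT line. Of the 30 large-subunit proteins with a bacterial counterpart, 21 had it in the mutant line and 15 in the WT line. Of the 16 such small-subunit proteins, 11 had it in the mutant line and 10 in the WT line. Of the 10 mitochondria-specific small-subunit proteins, 9 had it in the mutant line and 6 in the WT line.

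Most genes in the genome with H3K4me3 carry Menin as well, so the members were also set beside the 10668 genes with H3K4me3 at an end in both lines. Menin was at 86.3% of the 73 members among them in the mutant list, against 76.2% of those genes, and at 65.8% in the WT list, against 63.8%. The members' Menin peaks were not strong ones, with a median fold enrichment of 7.79 in the mutant list, beside 8.34 over all genes with a peak there, and of 7.50 in the WT list, beside 8.04.

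The highest Menin values of the mutant list belonged to Mrpl18 (31.7), Mrpl51 (23.1) and Mrpl57 (22.6), and those of the WT list to Mrpl41 (17.6), Mrps36 (17.1) and Mrpl52 (14.4). Among members with Menin in the mutant line only, Mrpl18 was followed by Mrps9 (9.40), Mrps7 (8.85), Mrps26 and Mrps30 (7.68 each), and by Mrpl20, Mrpl21, Mrpl36 and Mrpl47 (6.54 each). Counted over its span or within 1 kb of its listed start, Mrpl18 had Menin in both lines. The mutant Menin peak of Mrpl18 also lay within 1 kb of the listed start of Tcp1. The WT peak of Mrpl52 lay at the far end of the gene, and within 1 kb of its listed start Mrpl52 had Menin in the mutant line only. The mutant library was also the deeper one. With the mutant list thinned to the WT depth, 51 members had Menin in the mutant list and 48 in the WT list, with 12 in the mutant line only and 9 in the WT line only, while all genes stood at 31.4% in the mutant list and 31.6% in the WT list, with 4.79% in the mutant line only and 4.9% in the WT line only. Mrps9, Mrps7, Mrps26 and Mrps30 were still called in the mutant line only at equal depth. With equal numbers of peaks 59 members had Menin in the mutant list and 48 in the WT list. Of these, 14 had it in the mutant line only and 3 in the WT line only. All genes then stood at 34.2% in the mutant list and 31.6% in the WT list, with 6.11% in the mutant line only and 3.44% in the WT line only.

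**Figure D3:**
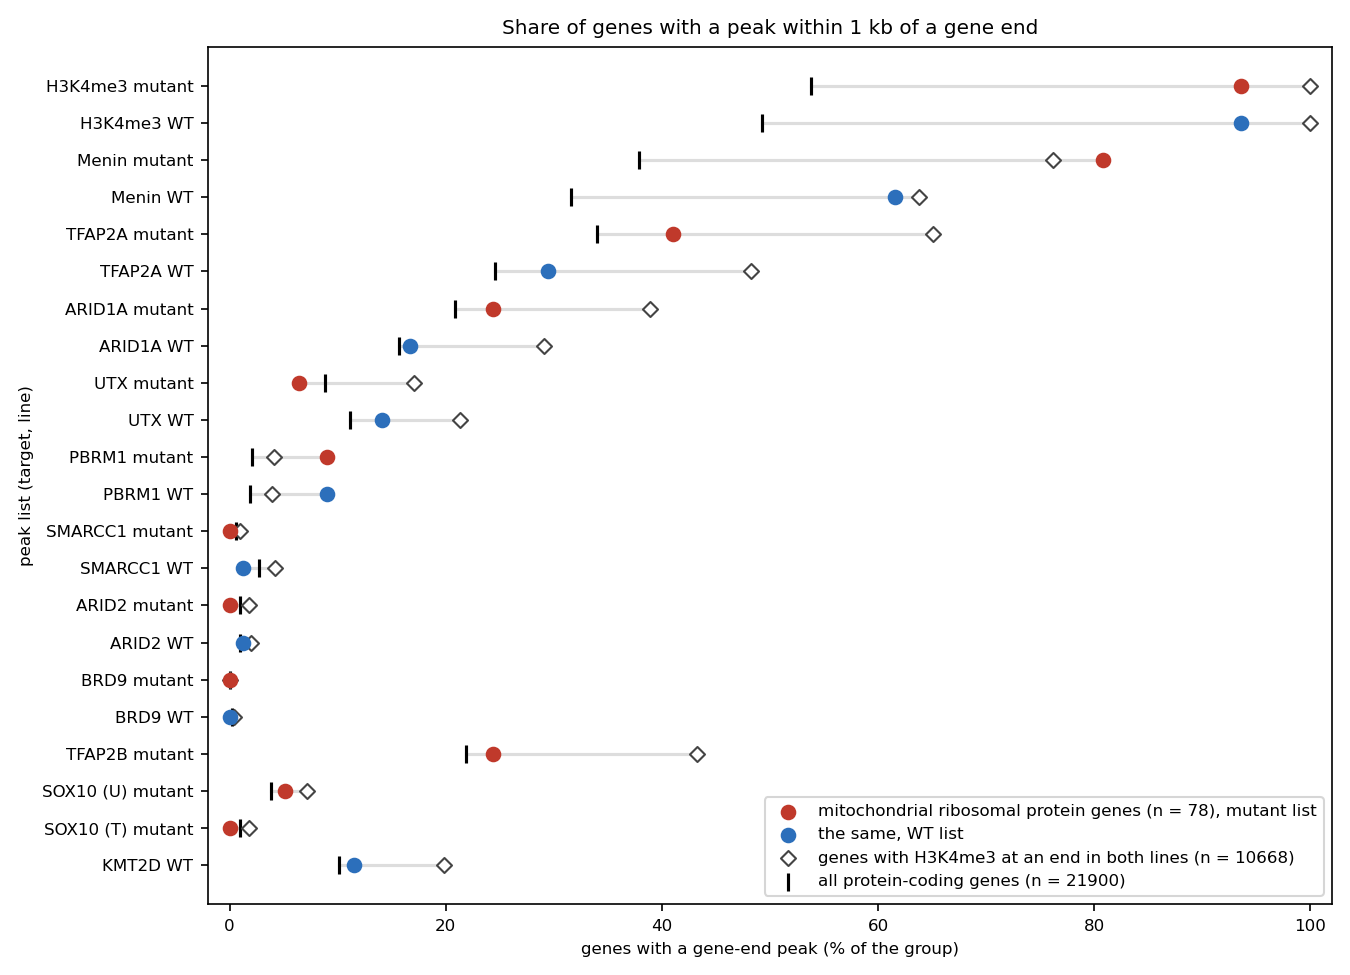
The x axis is the percentage of genes with a gene-end peak in each list; filled circles are the 78 members (red in mutant lists, blue in WT lists), diamonds the 10668 genes with H3K4me3 at an end in both lines, and bars all 21900 genes. Members lie right of both comparisons for Menin in the mutant line and for PBRM1 in both lines, and left of the diamonds for TFAP2A, TFAP2B, ARID1A, UTX and KMT2D. The circles also include members without gene-end H3K4me3. For Menin in the WT line the circle lies left of the diamond (61.5% against 63.8%), whereas 65.8% of the 73 members with H3K4me3 in both lines had Menin there.

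TFAP2A, a transcription factor of the neural crest and of pigment cells, sat at 32 members (41.0%) in the mutant list, where 34.0% of all genes had it, and at 23 (29.5%) in the WT list, where 24.6% did. Both lines shared 21 members (23.4% of all genes), with 11 in the mutant line only (10.6% of all genes) and Mrpl18 and Mrps33 in the WT line only (1.2% of all genes). Among genes with H3K4me3 in both lines, 43.8% of members had it in the mutant list, against 65.1% of all such genes, and 31.5% in the WT list, against 48.3%. The peaks were also narrow in the mutant list, with a median of 269.5 bp beside 509 bp over all genes, whereas in the WT list it was 466 bp beside 549 bp.

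A small number of members carried strong TFAP2A peaks. Mrps16, for a small-subunit protein with a bacterial counterpart, had a fold enrichment of 82.3 in the mutant list and 28.6 in the WT list, which were at percentile 98.3 of the mutant list and 88.6 of the WT list. Mrpl40, beside the histone chaperone gene Hira, had 55.0 in the mutant list and 35.6 in the WT list. Mrpl58, which encodes a peptidyl-tRNA hydrolase built into the large subunit, had 39.9 in the mutant list and 24.2 in the WT list. Mrpl2 had 37.3 in the mutant list and 36.1 in the WT list. Mrpl34 had 33.9 in the mutant list and 23.6 in the WT list. In the promoters printed above, the TFAP2 letters GCCGGAGGC of Mrps16 lay inside the TFAP2A peak of both lines, 46 bp from the mutant summit and 28 bp from the WT summit. GCCCGGGGC of Mrpl40 lay 85 bp from the mutant summit and 81 bp from the WT summit, and GCCCCTGGC of Mrps12 lay 111 bp from the mutant summit and 139 bp from the WT summit, also inside the peaks.

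TFAP2B, a close relative read in the mutant line only, was at 19 members (24.4%) against 21.9% of all genes, and 18 of these 19 also had TFAP2A there. Of the members with H3K4me3 in both lines, 26.03% had TFAP2B, against 43.3% of all such genes. Its highest values were at Mrps16 (51.5) and Mrpl40 (25.7), the genes that led TFAP2A in the mutant list. TFAP2B accompanied TFAP2A at 15 of the 21 members with TFAP2A in both lines (71.4%, against 78.9% of all such genes) and at 3 of the 11 with TFAP2A in the mutant line only (27.3%, against 26.4%).

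Members with TFAP2A in the mutant line only had lower values: Mrps18a 10.2, Mrps9 9.33, Mrpl20 6.79, Mrpl48 5.92, Mrpl43 5.57, then Mrpl10 and Mrps31 with 5.09 each. In the WT line only, Mrpl18 had 10.1 and Mrps33 6.01; over their spans or by listed start, Mrpl18 and Mrpl48 had TFAP2A in both lines. At equal depth 25 members had TFAP2A in the mutant list and 23 in the WT list, with 5 in the mutant line only and 3 in the WT line only. All genes stood at 28.6% in the mutant list and 24.6% in the WT list there, with 6.56% in the mutant line only and 2.54% in the WT line only. With equal numbers of peaks 19 members had it in the mutant list and 23 in the WT list, 3 in the mutant line only and 7 in the WT line only, while all genes stood at 25.4% in the mutant list and 24.6% in the WT list, with 4.72% in the mutant line only and 3.87% in the WT line only. The order of the lines in members called for TFAP2A thus turned with equal numbers of peaks, and that over all genes did not.

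SOX10, the regulator of the melanocyte lineage, was at 4 members in the mutant list of antibody U (3.83% of all genes) and at 0 members in that of antibody T (0.932% of all genes). Mrps26, Mrps36 and Mrpl39 had a fold enrichment of 4.53 each and Mrps12 had 4.36, all below the middle of the list, and none of these peaks met a −log10 q of at least 5.

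KMT2D itself was at 9 members (11.5%) in the WT list, where 10.1% of all genes had a gene-end peak and 19.8% of the genes with H3K4me3 in both lines did. Mrpl41 (28.2) and Mrpl34 (27.5), both for large-subunit proteins, stood at percentiles 85.1 and 84.8 of the list. Mrps18b (12.1) and Mrps14 (10.7) were near its middle, and Mrpl48 (8.26), Mrpl40 (7.90), Mrps12 (6.48), Mrpl38 (5.10) and Mrps36 (4.40) lay below it. Mrps12 encodes the counterpart of the bacterial S12 protein of the decoding centre, and the product of Mrps36 is now known as a part of the oxoglutarate dehydrogenase complex. In 7 of the 9 the peak also lay at an end of another gene, such as Pnpla7 for Mrpl41, Abhd8 for Mrpl34 and Ppp1r10 for Mrps18b; Mrps14 and Mrps36 had no such neighbour.

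UTX, the demethylase that works with KMT2D, had a gene-end peak at 5 members (6.41%) in the mutant list, where 8.86% of all genes had one, and at 11 (14.1%) in the WT list, where 11.1% did. Of the members with H3K4me3 in both lines, 6.85% had UTX in the mutant list, against 17.1% of all such genes. In the WT list 15.1% had UTX, against 21.3%. Mrpl34 had it in both lines (6.72% of all genes), 4 members had it in the mutant line only (2.14% of all genes) and 10 in the WT line only (4.39% of all genes). In the WT line all 9 members with KMT2D also had UTX, and the best peaks of both overlapped at all 9, while 84.6% of the 2221 genes with KMT2D had UTX.

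At those 9 genes UTX was mostly not called in the mutant line. Mrpl34 had a mutant UTX peak with a fold enrichment of 13.1, and its WT value was 31.1. Mrps18b (16.1), Mrps14 (15.3), Mrpl41 (13.0), Mrps12 (11.8), Mrps36 (9.99), Mrpl48 (7.67), Mrpl38 (5.44) and Mrpl40 (4.68) had UTX in the WT list and no gene-end peak in the mutant list. So 1 of 9 members had UTX in the mutant line (11.1%), against 1291 of all 1880 genes with KMT2D and UTX in the WT line (68.7%). Among the 1463 of those genes whose WT UTX fold enrichment lay within the members' range of 4.68 to 31.1, 61.2% had it. At or below the members' median of 11.8, 43.7% of 753 genes did and 0 of 5 members. The mutant UTX library was the deeper one. Thinning it can only remove mutant peaks, so of these 9 genes it could change only Mrpl34, whose call stayed. This setting thus cannot tell whether the mutant library detected UTX less well, and the cause was not tested.

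The placing of the peaks matters for this count. By listed starts, 3 of 9 members with KMT2D and UTX in the WT line had UTX in the mutant line (Mrpl18, Mrpl34 and Mrpl48), against 69.02% of 1556 genes, and over the gene span 5 of 12 did, against 74.9% of 3235 genes. Mrpl41, Mrpl40, Mrps12, Mrps14, Mrps18b and Mrps36 lacked mutant UTX under all 3 placings, and Mrpl38, which has no listed start, under the other two. Their nearest mutant UTX peak was 11.5 kb from a gene end at Mrps12, 44.1 kb at Mrps14, 49.1 kb at Mrps18b, 60.03 kb at Mrpl40, 185 kb at Mrpl41 and 721 kb at Mrps36. H3K4me3 was present at a gene end of all 9 in both lines. Its mutant fold enrichments ran from 13.2 (Mrpl40) to 48.3 (Mrpl48) and its WT values from 10.4 (Mrpl40) to 24.3 (Mrpl48). In the WT line the best KMT2D and H3K4me3 peaks overlapped at 8 of the 9. At Mrpl38 the strongest H3K4me3 peak of each line lay at the other end of the gene from the KMT2D and UTX peaks.

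**Figure D4:**
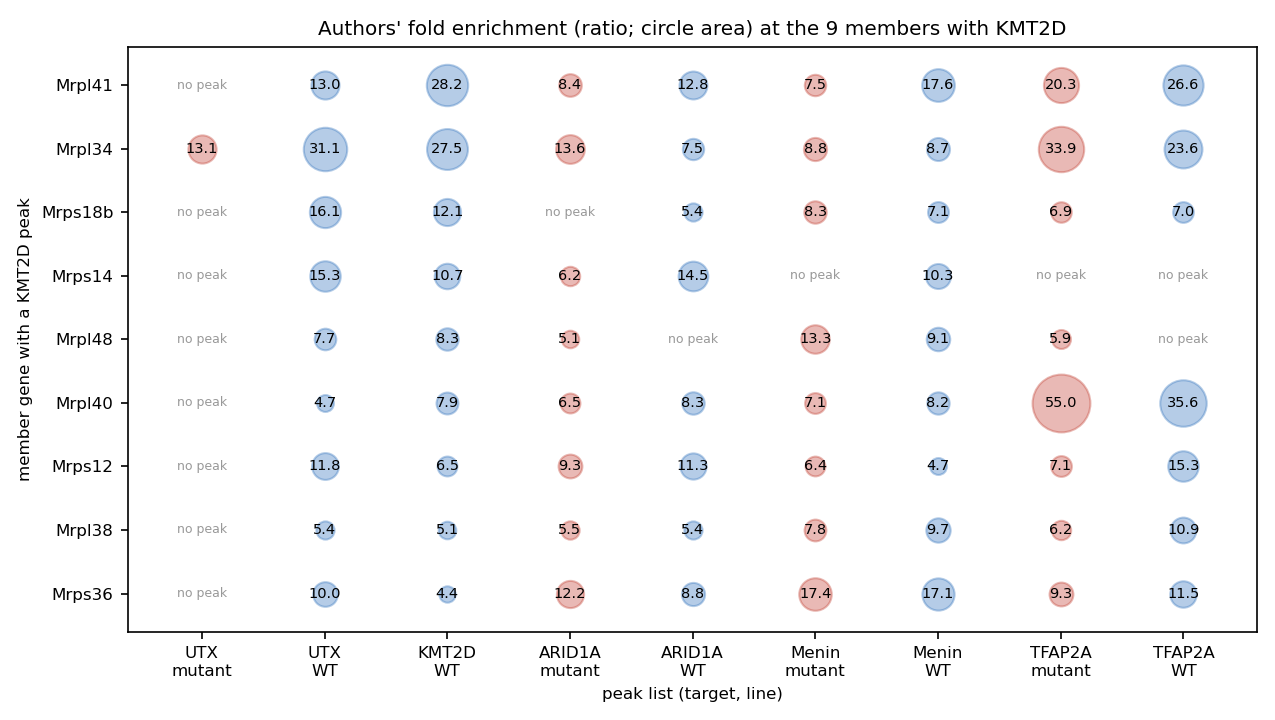
The 9 members with a KMT2D peak in the WT line (rows, by KMT2D strength) and the authors' fold enrichment (ratio) of their gene-end peaks in 9 lists; circle area follows the number printed, red is the mutant line and blue the WT line, and values are comparable only down a column. UTX is present in 9 of 9 rows in the WT column and in 1 of 9, Mrpl34, in the mutant column, while ARID1A is present in 8 of 9 rows in both lines.

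UTX in the mutant line only was weak and lay at Mrps16 (6.09), at the shared start of Mrpl46 and Mrps11 (5.58, 1 peak counted for both) and at Mrpl47 (4.35). At all 5 members with UTX in the mutant list the peak also lay at an end of another gene. The remaining UTX calls of the WT line only were Mrpl58 (4.43, at the far end of the gene) and Mrpl11 (3.92), neither of which had KMT2D.

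Of the SWI/SNF remodelling complexes, ARID1A, the defining subunit of the BAF form, was at 19 members (24.4%) in the mutant list, where 20.9% of all genes had it, and at 13 (16.7%) in the WT list, where 15.7% did. Both lines shared 10 members (12.9% of all genes), 9 had it in the mutant line only (7.94% of all genes) and 3 in the WT line only (2.76% of all genes). Among genes with H3K4me3 in both lines, 26.03% of members had it in the mutant list, against 38.9% of all such genes, and 17.8% in the WT list, against 29.1%. The highest values were 19.9 at both Mrps16 and Mrpl33 in the mutant list and 14.5 at Mrps14 in the WT list.

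Mrps16 led the members with ARID1A in the mutant line only and was followed by Mrps34 (9.33), Mrpl58 (6.504), Mrpl51 (5.09), Mrpl48 (5.07) and, with 4.38 each, Mrpl47, Mrpl57, Mrps22 and Mrps26. Counted over its span or by its listed start, Mrpl48 had ARID1A in both lines. Mrps18b (5.43), Mrps24 (5.11) and Mrps5 (4.86) had it in the WT line only. Thinning to equal depth left these ARID1A counts as they were, where all genes stood at 19.1% in the mutant list and 15.7% in the WT list. Equal numbers of peaks gave 14 members in the mutant list and 13 in the WT list, with 4 in the mutant line only and 3 in the WT line only. All genes then stood at 17.3% in the mutant list and 15.7% in the WT list, with 5.63% in the mutant line only and 4.05% in the WT line only. ARID1A was present at 8 of the 9 members with KMT2D in each line, Mrps18b being the exception in the mutant line and Mrpl48, by its gene ends, in the WT line.

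PBRM1, a subunit of the PBAF form, was at few genes of any kind but at 7 members in each line (8.97%), against 2.03% of all genes in the mutant list and 1.9% in the WT list. Beside the genes with H3K4me3 in both lines it was at 9.59% of members in both lists, against 4.14% in the mutant list and 3.90% in the WT list. Mrpl20, Mrpl16, Mrpl40, Mrps34 and Mrpl52 had it in both lines (1.36% of all genes). Their fold enrichments in the mutant list were 15.6 for Mrpl20, 11.99 for Mrpl16, 7.90 for Mrpl40, 6.62 for Mrps34 and 5.62 for Mrpl52. In the WT list they were 6.81 for Mrpl20, 10.6 for Mrpl16, 6.21 for Mrpl40, 8.87 for Mrps34 and 6.41 for Mrpl52. Mrpl21 (8.54) and Mrpl13 (5.97) had it in the mutant line only (0.667% of all genes), and Mrps18b (10.6) and Mrpl51 (5.76) in the WT line only (0.539% of all genes). Among cytosolic ribosomal protein genes 13 of 81 had PBRM1 in the mutant list and 10 in the WT list, and 6 of 87 nuclear genes of oxidative phosphorylation had it in each list. At equal depth 4 members had PBRM1 in the mutant list and 7 in the WT list, against 1.42% of all genes in the mutant list and 1.9% in the WT list.

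The other SWI/SNF subunits had gene-end peaks at few genes of any kind. SMARCC1, a core subunit, was at 0 members in the mutant list (0.598% of all genes) and at Mrps12 in the WT list (4.37; 2.72% of all genes). Over all genes SMARCC1 was called in both lines at 0.26%, in the mutant line only at 0.338% and in the WT line only at 2.46%. By listed start SMARCC1 was at 2 of 69 members in the WT list (2.90%, against 2.24% of genes with a listed start). Over the gene span it was at 2 members in the mutant list (2.56%, against 5.38% of all genes) and at 4 in the WT list (5.13%, against 15.7%). ARID2, also of PBAF, was at 0 members in the mutant list (0.932% of all genes) and at Mrps18b in the WT list (4.53; 0.986% of all genes), where the all-gene shares were 0.58% in both lines, 0.352% in the mutant line only and 0.406% in the WT line only. BRD9 was at 0 members in both lists, which held 0.0183% of all genes in the mutant line and 0.21% in the WT line, with 0.192% in the WT line only. The mutant SMARCC1 list was the shallowest of all, and at its depth the WT peak at Mrps12 was not called either.

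Seen gene by gene, many members had H3K4me3 with few other peaks, and a few had peaks of many proteins. Mrpl3, Mrpl9, Mrpl19, Mrpl23 and Mrps15 had H3K4me3 in both lines and no other peak. They were 6.85% of the 73 members with H3K4me3 in both lines, against 9.74% of all such genes. A further 21 of the 73 (28.8%) had H3K4me3 and Menin at a gene end and nothing else. This pattern was found at 13.8% of the genes with H3K4me3 in both lines. Mrpl12, Mrpl28, Mrpl42, Mrpl44 and Mrps21 are examples. In Mrpl17, also among them, the Menin peaks lay at the far end of the gene. Neither line had Menin within 1 kb of its listed start. The other 47 (64.4%) had a peak of at least 1 protein other than Menin, against 76.4% of those genes. The median member had peaks in 5 of the 22 lists, the median gene in 2 and the median gene with H3K4me3 in both lines in 6. Mrpl40 and Mrps12 were in 13 lists, Mrpl34 and Mrps18b in 12, and Mrpl38, Mrpl41 and Mrps36 in 11. At Mrps18b and Mrpl38 the strongest peaks of different lists lay at different ends of the gene. These 7 members in 10 or more lists were 8.97% of members, against 9.29% of all genes and 18.8% of those with H3K4me3 in both lines. KMT2D, itself one of the lists counted, was at all 7, and at 82.5% of the 2034 genes in 10 or more lists. At Mrpl40 the WT peaks of Menin, ARID1A, UTX and PBRM1 ended on the same base, 18876953 of chromosome 16.

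The calls were also counted by the place of the protein. Among the 30 large-subunit proteins with a bacterial counterpart, 7 genes had TFAP2A in the mutant list and 5 in the WT list. Among the 21 large-subunit proteins that arose with mitochondria, 14 had it in the mutant list and 10 in the WT list. TFAP2B in the mutant list was at 5 of the 30 with a bacterial counterpart and at 11 of the 21 without, and ARID1A there was at 3 of the 30 and 8 of the 21. Among small-subunit genes TFAP2A in the mutant list was at 7 of 16 that have a bacterial counterpart and 3 of 10 that do not, and in the WT list at 4 of the 16 and 3 of the 10. TFAP2B in the mutant list was at 2 of the 16 and 1 of the 10, and ARID1A there was at 4 of the 16 and 3 of the 10. In the WT list ARID1A was at 5 of the 16 and 1 of the 10 small-subunit genes, and at 2 of the 30 and 4 of the 21 large-subunit genes. The classes hold few genes, some share peaks with neighbours, and the differences were not tested.

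The peaks sat at the gene starts. For members with a listed start and a peak, the summit was nearer the start than the far end at 64 of 65 for H3K4me3 in each line, at 54 of 56 in the mutant list and 39 of 43 in the WT list for Menin, and at 29 of 30 in the mutant list and 20 of 21 in the WT list for TFAP2A. Over these, the median H3K4me3 summit was 189.5 bp into the gene in the mutant list and 213 bp in the WT list. Menin summits centred on the start, at 25 bp in the mutant list and −11 bp in the WT list. Summits of the other proteins lay just before it, at −55 bp in the mutant list and −28.5 bp in the WT list for TFAP2A, at −53 bp in the mutant list and −69 bp in the WT list for ARID1A, at −109 bp in the mutant list and −108 bp in the WT list for UTX, and at −88.5 bp for KMT2D in the WT list.

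**Figure D5:**
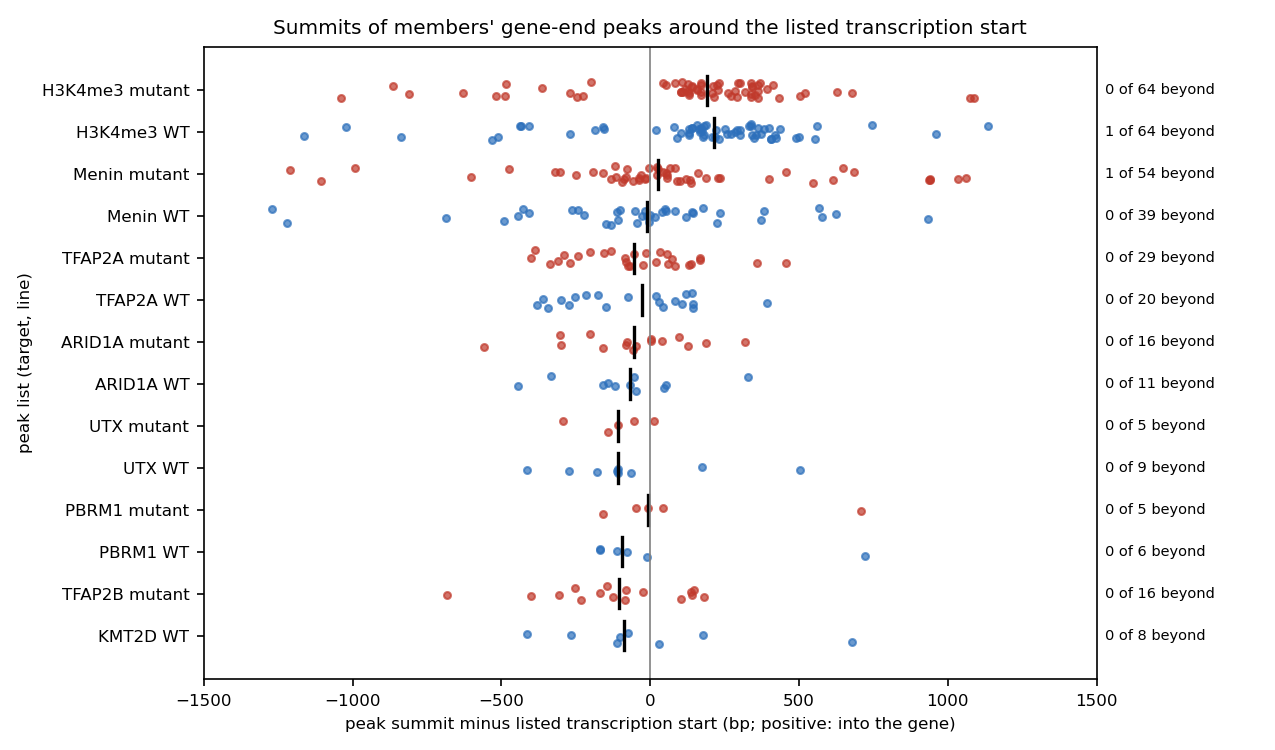
The x axis is the position of the summit of each member's best gene-end peak minus the listed transcription start in base pairs (positive into the gene); each point is 1 member whose peak was nearer its start than its far end, black bars are medians, red is mutant and blue WT, and the right margin counts points outside the plotted range; points are spread up and down at random. H3K4me3 medians lie 189.5 bp inside the gene in the mutant list and 213 bp in the WT list, those of Menin near 0, and those of UTX and KMT2D about 100 bp before the start.

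These genes often share their start with a neighbour. An end within 1 kb of an end of another protein-coding gene was found at 44 of 78 members (56.4%), against 24.8% of all genes. A listed start within 1 kb of one on the other strand was found at 25 of 69 members (36.2%), against 9.61% of genes with a listed start and 17.8% of those with H3K4me3 in both lines. Mrpl46 and Mrps11 were such partners of each other. Where a member with KMT2D had a partner it was Sars2, the mitochondrial seryl-tRNA synthetase gene, at Mrps12, Hira at Mrpl40, Pnpla7 at Mrpl41, Ppp1r10 at Mrps18b and Rab6a at Mrpl48. Of 408 gene-end calls over all members and lists, 227 were made by a peak that also lay at a neighbour's end, and for those the peak does not belong to one gene more than the other. Only genes with an end within 1 kb of a member's end counted as neighbours, so 227 is a lower bound. Tcp1, whose listed start lay within 1 kb of that of Mrpl18, was not counted. Among the 34 members with no neighbouring end, UTX in the mutant list was at 0, against 6.62% of all genes with no such end, and KMT2D in the WT list was at 2 (5.88%, against 7.30%).

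Known binding letters were counted in the members' promoters and in those of other genes. CCGGAAG, the ETS letters, was in 25 of 69 members' promoter windows from 250 bases before to 50 after the start (36.2%), against 11.9% of all 17492 promoters and 20.2% of the 8649 with H3K4me3 in both lines, here called marked promoters. Of the 30 matches, 27 began no more than 100 bases before the start, as the capitals of Mrpl34, Mrps12 and Mrpl22 show. AAGATGG, the YY1 letters, was in 18.8% of members against 6.37% of all and 7.56% of marked promoters, and 8 of its 15 matches lay after the start on the gene's own strand. The palindrome of NRF1, a regulator of nuclear genes for mitochondria, was in 3 members (4.35%), against 1.32% of all and 2.39% of marked promoters. SP1's GGGCGG was in 49.3% of members, 46.3% of all and 68.3% of marked promoters. CCAAT was in 39.1% of members, 39.03% of all and 39.9% of marked promoters, and the E-box CACGTG in 7.25% of members, 7.90% of all and 10.6% of marked ones. The SOX letters ACAATG were in 8.70% of members, 11.4% of all and 6.35% of marked promoters. Both strands were searched for each, and a match is a description and no proof of a site.

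GCCNNNGGC, the TFAP2 letters, was in 20.3% of members, 19.6% of all promoters and 25.7% of marked ones. Sorted by TFAP2A peaks within 1 kb of the listed start, it was in 7 of 21 members with TFAP2A in both lines (33.3%, against 34.8% of all such genes), in 1 of 12 with it in the mutant line only (8.33%, against 23.8%) and in 5 of 35 with none (14.3%, against 12.7%). Mrpl34 and Mrpl41, with TFAP2A peaks in both lines, had none in the window printed.

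Other genes of mitochondrial translation were read in the same lists. All 5 mitochondrial ribosomal protein genes with other names (Dap3, Ptcd3, Gadd45gip1, Aurkaip1 and Chchd1) had H3K4me3 in both lines, as did all 14 translation factors found, 22 of 23 genes of ribosome assembly, 19 of 20 mitochondrial aminoacyl-tRNA synthesis genes, 8 of 9 genes of mitochondrial DNA upkeep and transcription, and 8 of 9 nuclear regulators of mitochondrial genes. In the mutant list Menin was at 5 of the ribosomal genes with other names, 13 of the translation factors, 19 of the assembly genes, 15 of the aminoacyl-tRNA genes and 8 of each list of 9. In the WT list it was at 4 of the ribosomal genes with other names, 9 of the translation factors, 15 of the assembly genes, 14 of the aminoacyl-tRNA genes and 7 of each list of 9. Among cytosolic ribosomal protein genes, 63 of 81 had Menin in the mutant list and 51 in the WT list. TFAP2A was at 39 of those 81 in the mutant list and at 12 in the WT list, beside 32 of 78 members in the mutant list and 23 in the WT list. UTX was at 12 of those 81 genes in the mutant list and 10 in the WT list. At nuclear oxidative phosphorylation genes it was at 12 of 87 in the mutant list and 11 in the WT list, beside 5 of 78 members in the mutant list and 11 in the WT list. KMT2D in the WT list was at 11 of 81 cytosolic ribosomal protein genes and at 7 of 87 oxidative phosphorylation genes, beside 9 of 78 members.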

How the data were processed

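CUT&RUN libraries from the Kmt2d mutant line 493 and the Kmt2d WT line 971 were made with an Epicypher kit, per the labels' protocols, with 1 library per target and line. Per the submitters' processing notes, Bowtie2, FastQC, MACS2 and MultiQC were used on mm10; versions, thresholds and the caller's control are not given in the sources used here. The deposited lists carry, per peak, a score (the authors' −log10 q times 10, truncated), a fold enrichment, which is a ratio the authors' caller computed, and the caller's own −log10 p and q. No count of reads was used here.

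A gene was called if any base of a peak lay within 1 kb of either end of its RefSeq record (GRCm38.p6, no strand given). A member's value was its strongest such peak, and its percentile was taken within the list. Calls were repeated over gene spans and around the starts listed in the promoter table. Depth was reconstructed from fold enrichment and −log10 p with the caller's default mouse genome size, and each list's shortest peak stood for its fragment length. The ratio of 2 depths does not depend on the genome size. It does rest on those lengths and on a background fitted to each list, so it is an estimate. The deeper list was thinned by that ratio. This is not the same as calling peaks anew on fewer reads. Calls and depth were tested on simulated data. The members and gene lists were chosen with earlier results of these data known. Genes were named by rule: all without H3K4me3, up to 6 strongest per line-only class with ties, all with KMT2D, PBRM1, ARID2 or SOX10, the 5 highest and 5 lowest for H3K4me3, and those in the most and fewest lists; others were chosen after their values were seen. Tables were handled with pandas 2.3.3 and NumPy 2.4.6 under Python 3.11.15, Poisson tails came from SciPy 1.17.1, and plots from Matplotlib 3.10.9.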

Additional observations from a re-analysis of the deposited data

How the results depend on the processing

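No paired analysis was possible because each target had 1 library per line, and for the same reason no library could be left out. Values below are percentages of members, and every other result for H3K4me3, Menin, TFAP2A, ARID1A, UTX, PBRM1, KMT2D, TFAP2B and SOX10 (U) stayed within 1.5 times of the reported value under the settings named here. With a −log10 q of at least 5, UTX in the mutant list was at 2.56%, PBRM1 in the mutant list at 5.13% and SOX10 (U) at 0.0%. Under that limit the mutant line only shares were 1.28% for H3K4me3, 7.69% for TFAP2A, 5.13% for ARID1A and 1.28% for both UTX and PBRM1, and the WT line only shares 6.41% for Menin and 1.28% for TFAP2A and ARID1A. TFAP2A in the WT line only was 1.28% within 2.5 kb, within 0.5 kb, by summit and over the gene span, and 1.45% by listed start. Within 0.5 kb and by summit, H3K4me3 had 1.28% in the mutant line only and 1.28% in the WT line only, and by summit Menin in the WT line only was 5.13%. Equal numbers of peaks gave TFAP2A 24.4% in the mutant list, 3.85% in the mutant line only and 8.97% in the WT line only, ARID1A 5.13% in the mutant line only and PBRM1 5.13% in the WT line only. Equal depth gave PBRM1 5.13% in the mutant list, 1.28% in the mutant line only and 5.13% in the WT line only, TFAP2A 6.41% in the mutant line only and Menin 11.5% in the WT line only. Among the 34 members without a neighbouring end, UTX was at 0.0% in the mutant list, PBRM1 at 5.88% in both lists, TFAP2A at 17.6% in the WT list, KMT2D at 5.88% and SOX10 (U) at 8.82%; Menin in the WT line only was 5.88%, ARID1A in the mutant line only 5.88%, UTX in the mutant line only 0.0%, and PBRM1 in 1 line only 0.0% for both lines. Over the gene span UTX in the mutant list was 12.8% and SOX10 (U) 11.5%, and by listed start UTX in the mutant list was 10.1% and PBRM1 in the mutant line only 1.45%. Gene spans and listed starts were added after the data were seen. Leaving out regions called in at least 15 lists, or defining members by protein, moved no result by over 1.5 times. As no member had gene-end peaks in more than 13 lists, the former setting could change little. Apart from fewer peaks, fewer genes or another window, as each setting makes, the cause was not tested.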
